A study of Mus musculus with 4 samples.

Results

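The subject of this report is a difference of differences: how much the step from macrophage to osteoclast differed between 2 mouse genotypes, gene by gene. Bone marrow cells were kept for 4 days with 25 ng/ml M-CSF to give macrophages, and such macrophages were kept for 3 days with 25 ng/ml M-CSF and 50 ng/ml RANKL to give osteoclasts. Marrow came from wild-type mice or from LysM-St18flox mice. The latter name by convention stands for a loxP-flanked St18 gene with Cre recombinase driven by the lysozyme M gene of myeloid cells. The 4 groups are therefore wild-type macrophages, wild-type osteoclasts, LysM-St18flox macrophages and LysM-St18flox osteoclasts, and each was measured on 1 array of a 1-colour Agilent slide. The sources used here do not give the age, sex, strain or number of the mice, nor whether macrophages and osteoclasts were grown from the same marrow. With 1 array a group no test is possible, and every difference below is a description of these 4 arrays.

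For each gene the response is its log2 signal in osteoclasts minus that in macrophages of the same genotype, and it holds both RANKL and the longer time in culture. The difference of differences is the response in LysM-St18flox minus the response in wild-type. It is positive when a gene gained more, or lost less, in LysM-St18flox. All 4 arrays entered, and a gene was taken when its probe was well above background on each of them, which left 13671 of 22903 named genes. A further 2160 genes were well above background on 1 to 3 arrays and have no difference of differences here. Levels are log2 signals relative to the 75th percentile of the array, so that 0 is the level of that percentile. Where 4 levels stand in a row, they are those of wild-type macrophages, wild-type osteoclasts, LysM-St18flox macrophages and LysM-St18flox osteoclasts, and where 2 responses stand in a row, the wild type comes first.

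Osteoclasts are multinucleated cells that form when macrophages fuse, and they dissolve bone by pumping acid and secreting proteases against its surface. RANKL acts through NF-kappaB, AP-1 and Nfatc1 to switch on fusion, acid secretion and resorption, while macrophage genes and the repressors of the program are shut down. Mitochondrial genes are raised as well, since resorption consumes much energy. St18 is a zinc finger transcription factor of the Myt1 family.

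The genotype checks came out as follows. St18 had levels of 0.30 and 1.55 in wild-type macrophages and osteoclasts and of -1.52 and 1.12 in LysM-St18flox, a difference of differences of 1.38. Where its probe lies relative to the loxP sites is not given, so it does not check the deletion. Its relatives Myt1 and Myt1l were well above background on none of the arrays. Lyz2, the lysozyme M gene, had levels of 6.38 and 5.49 in the wild type and 6.31 and 4.44 in LysM-St18flox, and its difference of differences was -0.98. The neighbouring Lyz1 was at 0.01. Xist was detected above background on every array, with a difference of differences of 0.13, and the Y-linked genes were above background on none. Markers bear on the labels as follows. Csf1r, the M-CSF receptor, lay between 7.58 and 8.49 on all 4 arrays, so it does not tell macrophages from osteoclasts. Adgre1, Cd68, Cd14, Mertk, Fcgr1 and Siglec1 were lower in osteoclasts of both genotypes, but Cd68 had responses of only -0.45 and -0.06. Itgam had responses of 0.10 and -0.45. Ctsk, the collagen-degrading protease of osteoclasts, rose from 0.06 to 7.75 in wild-type and from -0.30 to 8.04 in LysM-St18flox. The osteoclast markers Acp5, Dcstamp, Ocstamp, Oscar, Atp6v0d2 and Itgb3 rose in both genotypes as well.

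Technical precision within an array was high and says nothing about variation between cultures. Among 114 probes printed 10 times, the median SD between spots was 0.029 to 0.045 over the 4 arrays, which gives an SD of 0.073 for a difference of differences. Different probes of a gene varied more. Over 4958 genes with at least 2 usable probes, the SD of the difference of differences between probes had a median of 0.13 and a 90th percentile of 0.39. Of 220 such genes with a difference of differences of at least 2-fold, 91.4% had the same sign in every probe.

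A difference of differences of at least 2-fold was found for 440 genes in the positive direction (3.22% of 13671) and for 642 in the negative direction (4.7%). The split depends on the scaling: with each array centred on its median over all genes, 810 genes were higher and 363 lower, and the median of all genes moved from 0.04 to 0.28. A stretch of the shared response made up part of this. The responses of the 2 genotypes had a correlation of 0.86 across genes, which share arrays and are not replicates, and the total least squares line through them had a slope of 1.51 and an intercept of 0.01. Of 2082 genes whose mean response reached 2-fold, 1809 (86.9%) had the larger response in LysM-St18flox. This was so for 791 of 870 genes that were higher in osteoclasts (90.9%) and for 1018 of 1212 that were lower (84.0%).

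The stretch grew with the size of the response and flattened at both ends. Genes with a mean response between 1 and 2 (640 genes) had a median difference of differences of 0.67, those between 2 and 3 (119 genes) 1.09, and those above 4 (58 genes) 1.51. On the falling side the medians were -0.50 between -1 and -2 (904 genes), -0.77 between -2 and -3 (223 genes), -1.25 between -3 and -4 (67 genes) and -0.97 below -4 (18 genes). The line gave 2.04 for the genes above 4 and -1.77 for those below -4, so the strongest responders of either direction lay short of it, by a median of 0.61 and 0.92. The lower end rests on those 18 genes, and between -3 and -4 the shortfall was 0.16.

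**Figure D1:**
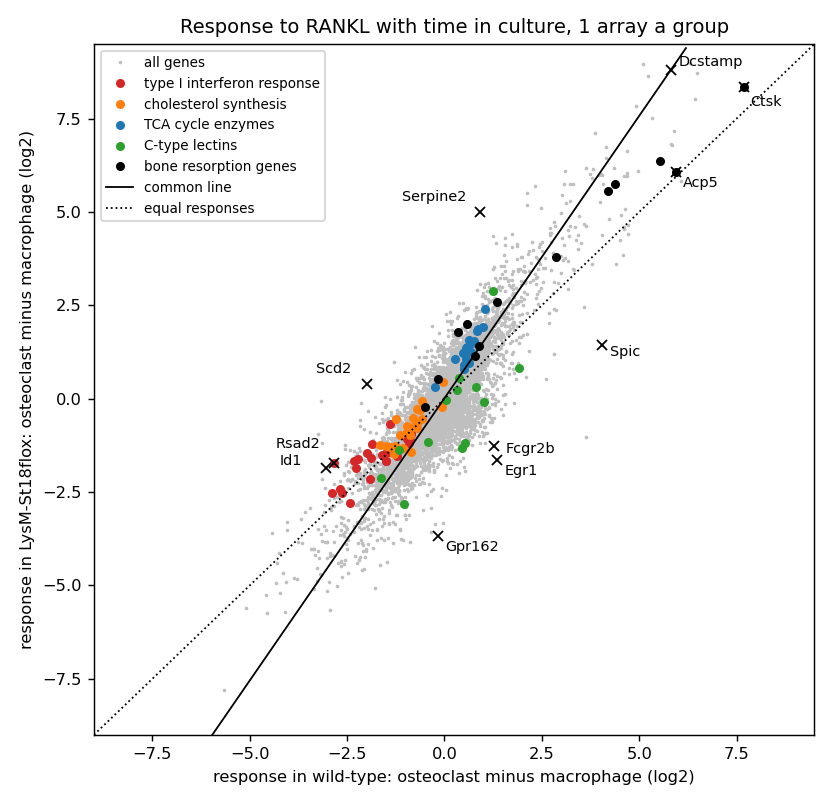
Response in LysM-St18flox (vertical axis, log2) against response in wild-type (horizontal axis, log2) for 13671 genes (grey), with members of 5 gene groups in colour and named genes as crosses. The solid line is the common line of slope 1.51 and the dotted line marks equal responses; the red type I interferon genes lie above the solid line and Egr1, Fcgr2b and Gpr162 far below it.

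**Figure D2:**
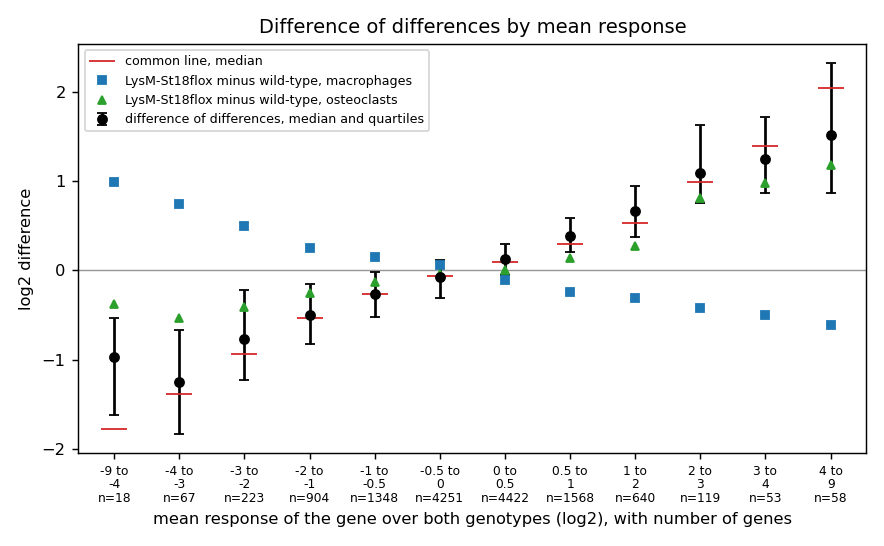
Median difference of differences (black, bars from the 25th to the 75th percentile over genes) in bins of mean response, with the value of the common line (red) and the median genotype difference in macrophages (blue) and osteoclasts (green), all log2. The black points go from -0.97 in the lowest bin to 1.51 in the highest and leave the red marks at both ends.

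To separate genes that departed from the stretch, each gene's deviation was taken as its difference of differences minus the value of the common line at the gene's own mean response. A positive deviation means that the LysM-St18flox response sat higher than the shared stretch gives, whichever way the gene moved. The deviation was at least 2-fold upward for 258 genes (1.89%) and downward for 421 (3.08%), and 54.0% of all genes lay above the line, with a median of 0.03. Of the 1082 genes with a 2-fold difference of differences, 595 (55.0%) deviated by less than 2-fold. The deviation cannot change when an array is rescaled as a whole, because the line shifts with the genes. Its SD over genes was 0.46, against 0.57 for the difference of differences itself, so 65.3% of the variance between genes was left after the line was taken off.

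A difference of differences can come from the macrophage arrays, the osteoclast arrays or both. For the 440 genes in the positive direction the median LysM-St18flox minus wild-type difference was -0.53 in macrophages and 0.91 in osteoclasts, and 293 of them had opposite signs in the cell types. In the 642 negative genes the medians were 0.72 in macrophages and -0.65 in osteoclasts, with 483 of opposite sign. The macrophage difference was the larger for 168 positive genes (38.2%) and for 349 negative genes (54.4%). Choosing genes by this value favours opposite signs, because the macrophage difference is subtracted from the osteoclast difference in it. The share of opposite signs over all genes was not taken. By size alone, the 2-fold counts drew on macrophages as well as on osteoclasts.

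**Figure D3:**
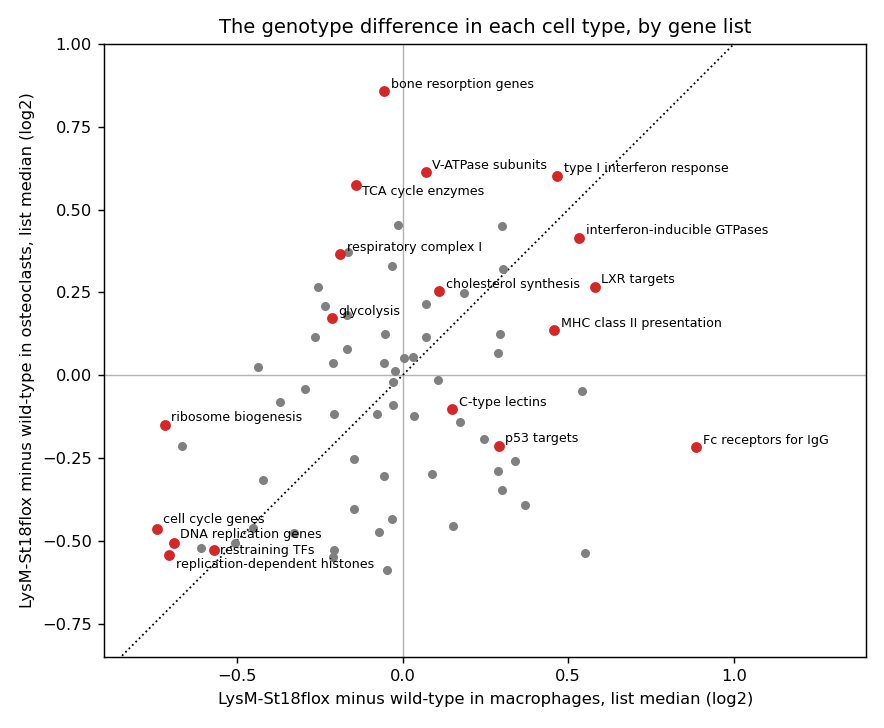
Median LysM-St18flox minus wild-type difference of each gene list in osteoclasts (vertical axis, log2) against macrophages (horizontal axis, log2), 1 point a list with at least 4 measured members, with some lists named in red. Points above the dotted line have a higher median genotype difference in osteoclasts than in macrophages, whichever way the genes responded. In macrophages and osteoclasts, bone resorption genes sit at -0.05 and 0.86, cell cycle genes at -0.74 and -0.47, and Fc receptors for IgG at 0.89 and -0.22.

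The bone resorption genes followed the stretch at their median, with single members well off it. Of 16 listed genes 13 were measured, all 13 had a positive difference of differences (54.4% of all genes), and 10 of 10 whose mean response reached 2-fold had the larger one in LysM-St18flox, against 90.9% of all rising genes of that size. Their median difference of differences was 0.84 and their median deviation -0.04, with 6 above the line and 3 at least 2-fold below it, against 3.08% of all genes. Acp5, the tartrate-resistant acid phosphatase, had levels of 2.80, 8.73, 2.37 and 8.44. Its responses of 5.93 and 6.07 were nearly equal, and its deviation was -2.32. Ctsk had responses of 7.69 and 8.35 and a deviation of -2.63, and Atp6v0d2, an osteoclast subunit of the proton pump, 5.54 and 6.38 with a deviation of -1.60. These 3 genes had a mean response above 4, where the genes as a whole flatten to a median deviation of -0.61. All 3 lay farther below the line than that median. Itgav, the alpha v integrin chain, and Slc4a2, the bicarbonate and chloride exchanger, lay at the other end, with a difference of differences of 1.44 each and deviations of 0.997 and 0.90. Mmp9, which degrades gelatin, has no difference of differences because its signal in wild-type macrophages was too dim; it reached 4.86 and 6.93 in the wild-type and LysM-St18flox osteoclasts. Calcr, the calcitonin receptor, was well above background on the osteoclast arrays alone, at 0.91 and 3.01.

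Fusion genes held one of the largest values of all. Dcstamp, a membrane protein required for osteoclast fusion, had levels of -0.57 and 5.24 in wild-type macrophages and osteoclasts and of -2.38 and 6.42 in LysM-St18flox. It was lower in LysM-St18flox macrophages and higher in LysM-St18flox osteoclasts, so both sides added to a difference of differences of 2.99, and 2.88 in its other probe. Its deviation was -0.01, that is, Dcstamp lay on the common line. Genes with a mean response above 4, Dcstamp and Ocstamp among them, had a median deviation of -0.61. The related Ocstamp had responses of 5.33 and 7.51, a difference of differences of 2.19 and a deviation of -0.44. P2rx7, an ATP-gated channel linked to macrophage fusion, went the other way, from 2.48 to 1.64 in wild-type and from 3.40 to 1.004 in LysM-St18flox, with a difference of differences of -1.56. Over the 13 measured fusion genes the median deviation was -0.02, with 5 above the line. Scin, a gelsolin-like actin-severing protein that is abundant in osteoclasts, had an even larger difference of differences of 3.42, but its levels in macrophages (-2.25 and -4.17) came close to background. Its deviation was 0.58.

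The signalling genes of the RANK pathway mostly had small responses in both genotypes. The 22 listed genes from the receptor to the NF-kappaB subunits were all measured. None had a difference of differences of 2-fold, against 3.22% of all genes in the positive and 4.7% in the negative direction. The median was 0.02, where the line gave 0.18, the median deviation was -0.07, and 8 were above the line. Of the 7 whose mean response reached 2-fold, 4 had the larger response in LysM-St18flox, against 90.9% of all rising genes of that size. Traf1, an adaptor induced by NF-kappaB, had levels of 0.28 and 4.98 in wild-type and 0.77 and 5.41 in LysM-St18flox. Its responses were 4.71 and 4.64, and its deviation was -1.98. Traf1 lies among the genes with a mean response above 4, whose median deviation was -0.61. The subunits of the noncanonical NF-kappaB pathway also lay below the line: Relb responded by 1.25 and 0.56 (deviation -1.07) and Nfkb2 by 1.73 and 1.54 (deviation -0.87). Tnfrsf11a, the RANK receptor itself, responded by 0.45 and 1.06, with a deviation of 0.28.

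Transcription factors that promote osteoclasts had a median deviation of -0.01, with 8 of 17 above the line. The lowest was Prdm1, also called Blimp1, a repressor of the genes that hold osteoclasts back. It rose from -0.65 to 2.22 in wild-type and from 0.67 to 3.04 in LysM-St18flox, a deviation of -1.59. Factors that restrain osteoclasts had a median deviation of 0.45, between 0.30 and 0.57 under the alternative settings. Above the line were 8 of 10 measured members, against 54.0% of all genes. In osteoclasts the LysM-St18flox level exceeded the wild-type level for 0 of 10, against 48.7% of all genes, with a median difference of -0.53. In macrophages the median difference was -0.57, and the median difference of differences was -0.17. The 3 members at least 2-fold above the line, against 1.89% of all genes, were the Id proteins. These are small partners that block basic helix-loop-helix factors and are targets of BMP signalling. Of the other 7 members, 5 were above the line as well. Id1 had levels of 4.88, 1.84, 2.67 and 0.80. It was already lower in LysM-St18flox macrophages, and its responses were -3.04 in wild-type and -1.87 in LysM-St18flox, a deviation of 2.16. Id3 had responses of -1.92 and -0.88 (deviation 1.60), and Id2 of -1.36 and -0.45 (deviation 1.27). Irf8 and Maf fell more in LysM-St18flox. Irf8 had responses of -2.55 and -3.58 and a deviation of 0.21, and Maf responses of -3.22 and -4.28 and a deviation of 0.46.

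Some genes of the TGF-beta and BMP list also lay well above the line. Smad7, the inhibitory Smad, had levels of 0.21 and -1.01 in wild-type macrophages and osteoclasts and -1.22 and -0.72 in LysM-St18flox. The gene fell by 1.23 in wild-type and had a response of 0.50 in LysM-St18flox, a deviation of 1.86, with a difference of differences of 1.72, and 1.44 in its other probe. Smad6, the inhibitory Smad of the BMP branch, had levels of 1.64, 0.15, -0.07 and -0.24 and a deviation of 1.65. Skil, a repressor bound by Smads, had levels of 3.71, 2.56, 2.37 and 2.24 and a deviation of 1.26. In all 3 the LysM-St18flox macrophages were below the wild-type macrophages and nearer to the osteoclast levels. These genes are shown because they were 2-fold above the line. The type I receptor Tgfbr1 differed in osteoclasts instead, with levels of 3.76, 3.62, 3.41 and 4.70 and a deviation of 1.18. Signal-carrying Smads stayed near the line, with Smad2, Smad3, Smad4 and Smad5 between -0.10 and 0.19. Over all 22 measured genes of the list the median deviation was 0.11, with 16 above the line, against 54.0% of all genes. Of these, 4 were at least 2-fold above it, against 1.89% of all genes. Acvr2a (-1.06) and Tgfbr3 (-1.03) were 2-fold below it, against 3.08% of all genes.

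Type I interferon response genes departed most from the stretch among the 72 lists with at least 4 measured members. These genes encode antiviral effectors and their regulators. All 24 measured members, of 26 listed, lay above the line, against 54.0% of all genes, and 11 of them by at least 2-fold, against 1.89% of all genes. The median responses were -1.73 in wild-type and -1.56 in LysM-St18flox, so the fall in osteoclasts was about as deep in LysM-St18flox where the line would make it deeper. Of the 21 whose mean response reached 2-fold, 7 had the larger response in LysM-St18flox, against 84.0% of all falling genes of that size. The median deviation was 0.70 and lay between 0.56 and 0.81 under the alternative settings. Median levels were higher in LysM-St18flox on both sides, by 0.47 in macrophages and 0.60 in osteoclasts.

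Single interferon genes show the pattern array by array. Ifit1, an antiviral RNA-binding protein, had wild-type levels of 0.76 in macrophages and -1.56 in osteoclasts, and LysM-St18flox levels of 1.82 and 0.15. Ifit3 had levels of 2.19, -0.70, 3.15 and 0.62, and Isg15, a ubiquitin-like modifier, 4.73, 2.87, 4.90 and 3.68. For all 3 the LysM-St18flox level was the higher in either cell type, with more of the gap in osteoclasts, and the deviations were 1.46, 1.46 and 1.26. Rsad2, or viperin, had the largest deviation of the list at 2.04, with levels of 1.44, -1.40, 2.14 and 0.42. Its difference of differences was 1.12 in this probe and 0.07 in another, so its size is uncertain. Usp18 (1.24), Cmpk2 (1.37), Ifit2 (1.30), Ifi44 (1.25), Oasl1 (1.13), Oasl2 (1.16) and the regulator Irf7 (1.01) complete the 2-fold members. The upstream factor Irf9 was among the lowest at 0.17, and Oas2 was the lowest at 0.14.

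The promoters of 4 of these genes are shown because they carry the interferon-stimulated response element, the site bound by interferon regulatory factors. The letters GAAA, any 2 bases and GAAA again were searched on both strands of the 250 bases before each gene's start, in promoter sequences from RefSeq, assembly GRCm38.p6. They were found in any promoter of 936 of 27025 genes that have a promoter sequence (3.46%). Among measured list members with such a sequence, 8 of 18 type I interferon genes (44.4%) and 8 of 9 interferon-inducible GTPases (88.9%) had a match. In cholesterol synthesis 1 of 16 genes had a match and in glycolysis 0 of 20. Members without a promoter sequence were left out. A match describes the sequence and does not show binding. Each stretch of 80 bases runs 5′ to 3′ on the strand of the gene, and capitals mark the matches on either strand, which overlap in Isg15.
Rsad2, chr12:26456528-26456607, minus strand: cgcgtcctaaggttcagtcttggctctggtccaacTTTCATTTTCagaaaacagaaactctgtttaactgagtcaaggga
Ifit3, chr19:34583338-34583417, plus strand: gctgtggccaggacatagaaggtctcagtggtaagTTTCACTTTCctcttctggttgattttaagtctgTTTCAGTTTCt
Ifit1, chr19:34640750-34640829, plus strand: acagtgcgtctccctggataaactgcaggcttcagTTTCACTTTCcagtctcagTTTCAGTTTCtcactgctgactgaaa
Isg15, chr4:156200852-156200931, minus strand: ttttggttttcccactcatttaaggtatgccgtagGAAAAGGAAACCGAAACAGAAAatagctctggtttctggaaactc

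The interferon-inducible GTPases, which attack the vacuoles of intracellular pathogens, lay above the line less uniformly. Of 15 measured members 11 were above it, with a median deviation of 0.42. Iigp1 (deviation 1.81) and Tgtp2 (1.06) were 2-fold above. Tgtp2 had levels of 1.56, -0.90, 2.40 and 0.02, so it was higher in LysM-St18flox in either cell type. Iigp1 had levels of -0.35, -4.59, 0.99 and -3.13, of which the osteoclast levels were close to background. Gbp8 (-0.86) and Gbp7 (-0.56) were the lowest of the list. All 15 were higher in LysM-St18flox macrophages, against 47.0% of all genes.

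Cholesterol synthesis was another program that was lower in osteoclasts without a deeper fall in LysM-St18flox. Of 24 listed genes 23 were measured and 21 of these were above the line, against 54.0% of all genes, with a median deviation of 0.45. The median response was -0.86 in wild-type and -0.76 in LysM-St18flox. Of 8 genes whose mean response reached 2-fold, 4 had the larger response in LysM-St18flox, against 84.0% of all falling genes of that size. Cyp51, the lanosterol demethylase, had levels of 1.98, 0.32, 2.25 and 1.03, and a deviation of 1.01. Its responses were -1.66 in wild-type and -1.23 in LysM-St18flox. Insig1, the sterol-regulated retention protein of the pathway, fell by 1.24 in wild-type against a response of -0.54 in LysM-St18flox (deviation 1.05). Fdps (0.77) and Fdft1 (0.64), enzymes of the isoprenoid and squalene steps, followed with smaller deviations, and Ebp (-0.10) and Dhcr7 (-0.11) were the only members below the line.

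Cholesterol export leaned to the opposite side at its median, by a smaller amount. The 12 genes of efflux and of the LXR nuclear receptors had a median deviation of -0.20, between -0.31 and -0.08 under the alternatives. That median is short of the limit of 0.25 used below to single out lists. Above the line were 4 of the 12, against 54.0% of all genes. In LysM-St18flox macrophages 11 of the 12 had levels above those of the wild type, against 47.0% of all genes. The median macrophage difference of the list was 0.58. Pltp, the phospholipid transfer protein and an LXR target, had levels of -0.60, -0.28, 2.06 and 0.31. Its large gap was thus in macrophages, and its deviation was -1.79. Apoc1, an apolipoprotein, deviated by -2.004 with 3 of its 4 levels at -3.34 or lower. Abca1, the cholesterol efflux pump, had levels of 0.61, -0.03, 2.22 and 0.51 and a deviation of -0.60.

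The desaturase Scd2 had one of the largest deviations of any gene. Its wild-type levels were 1.15 in macrophages and -0.84 in osteoclasts, and its LysM-St18flox levels 2.43 and 2.82. It fell by 1.99 in wild-type and not in LysM-St18flox, where the response was 0.38, which gives a difference of differences of 2.38 and a deviation of 2.69. In the rest of its list of fatty acid synthesis genes, Acsl3 (1.04) and Fads2 (1.11) were also 2-fold above the line, and Fads1, the delta-5 desaturase, was the lowest at -0.55. The median of the 14 measured genes was 0.17, between 0.09 and 0.29 under the alternatives.

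Energy metabolism was stretched more than the line gives, by small amounts shared by nearly every member. All 18 TCA cycle enzymes lay above the line with a median deviation of 0.38, and their median response was 0.60 in wild-type and 1.32 in LysM-St18flox. Rises of at least 2-fold numbered 1 in wild-type and 14 in LysM-St18flox, against 4.39% and 9.98% of all genes. Idh3a, a subunit of the NAD-dependent isocitrate dehydrogenase, had levels of 3.48, 4.53, 2.72 and 5.12. It was lower in LysM-St18flox macrophages and higher in LysM-St18flox osteoclasts, and its difference of differences of 1.36 was the largest of the cycle. Deviations ran from 0.00 for Idh3g to 0.65 for Idh3a.

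The respiratory chain also lay above the line. Of the measured complex I subunits 35 of 36 lay above the line (median deviation 0.29), of complexes II to IV 22 of 23 (0.25), and of ATP synthase 15 of 15 (0.24). No subunit reached a 2-fold deviation. Median responses in wild-type and LysM-St18flox were 0.34 and 0.92 for complex I and 0.37 and 0.94 for ATP synthase. Ndufab1, the acyl carrier protein of complex I, had levels of 1.37, 2.06, 0.81 and 2.57 and a difference of differences of 1.07. Mitochondrial ribosomal proteins (69 of 77 above the line, median 0.18) and fatty acid oxidation (16 of 17, median 0.23) leaned the same way. The first of these medians fell to 0.09 against a running median line, and of all 1568 genes with a mean response between 0.5 and 1, 64.4% lay above the straight line, with a median of 0.10. The factors of mitochondrial biogenesis lay nearer the line, at a median of 0.06 with 13 of 21 above.

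Glycolysis differed in that it hardly responded in the wild type. The median response of its 20 genes was -0.08 in wild-type and 0.32 in LysM-St18flox, with a median deviation of 0.43 and 19 above the line. Ldhb, the heart-type lactate dehydrogenase, stood out with levels of 1.19, 2.63, 1.33 and 4.88. The macrophage levels were close and the osteoclast levels far apart, for a difference of differences of 2.10, and 2.32 in its other probe, and a deviation of 1.07. Hk1 (0.85) and Hk3 (0.71), which phosphorylate glucose, came next, and Eno2 (-0.30) was the only enzyme below the line. Podosome and actin genes, which build the attachment ring of the osteoclast, also had a near-0 wild-type response of -0.12 and 21 of 24 above the line, with a median deviation of 0.35. Subunits of the V-ATPase, which acidifies the space under the cell, had 15 of 18 above the line and a median of 0.23, between 0.12 and 0.36 under the alternatives.

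Cytosolic protein synthesis genes did not share this lean. The 80 measured cytosolic ribosomal proteins had a median deviation of -0.05, with 22 above the line, and the 22 ribosome biogenesis genes a median of 0.00, with 11 above. The biogenesis genes had responses of 0.86 and 1.31, which is the stretch of the line itself. Proliferation genes hardly responded in either genotype. The 25 cell cycle genes had median responses of -0.03 and 0.16, but the LysM-St18flox level exceeded the wild-type level for 0 of 25 in macrophages (median difference -0.74) and for 1 of 25 in osteoclasts (median -0.47), against 47.0% and 48.7% of all genes. By deviation 20 of the 25 cell cycle genes (median 0.21) and 21 of 26 DNA replication genes (median 0.18) were above the line. In bulk RNA, fewer dividing cells and less of these transcripts per cell cannot be told apart.

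**Figure D4:**
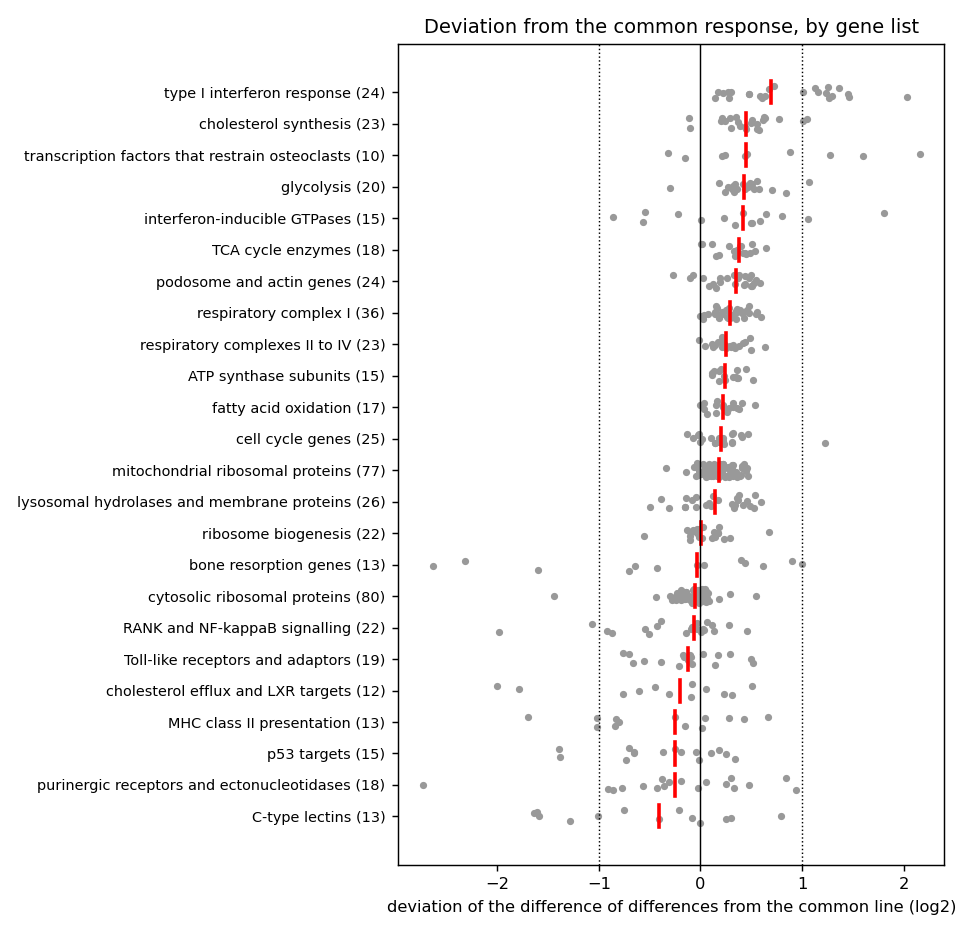
Deviation from the common line (horizontal axis, log2) of each measured member (grey) of 24 gene lists, with the list median in red, the number of members in brackets and dotted lines at 2-fold. The type I interferon list has its median at 0.70 with every member right of 0, and the C-type lectins at -0.41 with 10 of 13 left of 0.

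Macrophage surface receptors spread to both sides of the line. Of 18 listed genes 12 were measured, with a median deviation of 0.52 and 7 above the line. That median fell to 0.11 against a running median line. Cx3cr1, the fractalkine receptor, had levels of 4.99, 2.43, 3.37 and 2.02. It was lower in LysM-St18flox macrophages than in wild-type ones, with osteoclast levels closer together, and its deviation was 1.995, with 1.21 for the difference of differences in either probe. Siglec1, a sialic acid receptor, deviated by 1.67 with responses of -5.10 in wild-type and -5.61 in LysM-St18flox, but its osteoclast levels (-3.55 and -2.97) were near background and it lies among the strongest falling genes, which as a whole lay short of the line. Mertk, a receptor for dying cells, had levels of 0.82, -1.48, 2.48 and -1.74 and a deviation of -0.60. Most chemokines fell, and 9 of 12 whose mean response reached 2-fold had the larger response in LysM-St18flox, against 84.0% of all falling genes of that size. The median difference of differences of the chemokines was -0.49, where the line gave -0.71. The exceptions with a smaller fall in LysM-St18flox were Cxcl14 (deviation 2.06), Ccl7 (1.46) and Ccl2 (1.29). Cxcl10, an interferon-induced chemokine, had levels of 3.54, 3.10, 2.94 and 4.22 and a deviation of 1.54. The median deviation of the 17 measured chemokines was 0.29, between 0.08 and 0.48 under the alternatives, with 10 above the line.

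C-type lectin receptors lay farthest below the line. Of 13 measured genes 3 were above it, the median deviation was -0.41, between -0.64 and -0.29 under the alternatives, and 5 were at least 2-fold below, against 3.08% of all genes. Clec4n, which is dectin-2, a receptor for fungal mannans, had levels of 3.20, 3.65, 4.87 and 3.55. Only the LysM-St18flox macrophage array stood apart, and the deviation was -1.60. Clec4a1 (2.61, 3.13, 4.87 and 3.67, deviation -1.59), Clec4a3 (deviation -1.28) and Clec10a (deviation -1.01) were also highest in LysM-St18flox macrophages. Clec2d, a ligand of an NK cell receptor, had levels of -0.96, 0.95, 1.096 and 1.93 and a deviation of -1.64. The highest of the list was Cd207, or langerin, at 0.79, with levels of 3.41, 4.64, 0.68 and 3.56. These Clec4 genes are neighbours with related sequences, and signal from a near copy could reach a probe.

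Antigen presentation genes of MHC class II lay below the line by less. Of 13 measured genes 5 lay above the line, with a median deviation of -0.25, between -0.58 and -0.18 under the alternatives. H2-Aa (-0.80), H2-Ab1 (-0.83) and H2-Eb1 (-1.02), chains of the peptide-presenting receptor, lay below the line, as did the invariant chain Cd74 (-0.84) and the transactivator Ciita (-1.02). Ciita had levels of -1.21, -0.87, 0.09 and -0.67 and H2-Eb1 of 2.17, 2.56, 3.38 and 2.72, both highest in LysM-St18flox macrophages. The costimulatory ligand Cd86 was lowest of the list at -1.69, with levels of -1.67, -0.96, -0.15 and -1.18. Cd40 (0.67) and the peptide-loading genes H2-DMb1 (0.43) and H2-DMa (0.28) lay above the line. MHC class I and peptide loading genes stayed near it, at a median of 0.06.

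Targets of p53 had a median deviation of -0.25, between -0.36 and -0.14 under the alternatives, with 4 of 15 above the line, and a median response of -0.32 in wild-type and -1.10 in LysM-St18flox. Btg2, an antiproliferative factor, had levels of -0.90, -1.89, 1.12 and -2.10, and a deviation of -1.39. Fas, the death receptor, had levels of 0.17, 0.83, 1.13 and 0.40 and a deviation of -1.38. In both the LysM-St18flox macrophages were the highest array. The best known target Cdkn1a was the highest of the list at 0.34. Purinergic receptors and ectonucleotidases had 11 of 18 below the line and 8 with a difference of differences of at least 2-fold in the negative direction, against 4.7% of all genes. Their median deviation of -0.25 became 0.10 without a filter on dim probes. P2ry14, a receptor for UDP-glucose, had levels of -0.63, 1.98, 0.92 and 1.45 and a deviation of -2.73. Toll-like receptors and adaptors had 13 of 19 below the line and a median of -0.12, with Tlr7 (-0.76) and Tlr2 (-0.71) lowest.

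Growth factors and clotting genes had wide spreads around medians near the line. In the VEGF family (9 measured, median 0.04) Vegfc rose by 4.64 in wild-type and 5.09 in LysM-St18flox, a deviation of -1.55. Pgf, placental growth factor, rose by 4.61 and 4.60 from macrophage levels near background, a deviation of -1.90. Both genes had a mean response above 4, where the median deviation of all genes was -0.61. Flt1, the receptor that both Pgf and Vegfa bind, had responses of -2.03 and -1.50 and a deviation of 1.24. In the clotting list (13 measured, median 0.04) members lay 2-fold above and 2-fold below. Serpine2, the protease nexin that inhibits thrombin, had the largest difference of differences among genes clear of background. Its wild-type levels were 1.33 in macrophages and 2.23 in osteoclasts, and its LysM-St18flox levels -0.65 and 4.34. The difference of differences was 4.10 and the deviation 2.88. F13a1, a subunit of clotting factor XIII, was also above (1.33). Thbs1 (-1.84), F5 (-1.70) and F7 (-1.14) were below, the first 2 of them with levels near background.

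The 12 largest positive and 12 largest negative values were taken among genes whose signal on every array was at least 2 (log2) above the lowest signal well above background. After Serpine2 and Dcstamp the positive genes were Bdh2 (2.75), Myo1d (2.68), Tiam2 (2.67), Mt3 (2.62), Fam102a (2.54), Met (2.53), Cyb561 (2.47), Scd2 (2.38), Pkp2 (2.31) and Slc6a4 (2.31). All but Scd2 were higher in osteoclasts in both genotypes. Bdh2, a cytosolic dehydrogenase, had levels of 2.97, 4.53, 1.09 and 5.40, and a deviation of 1.54. Slc6a4, the serotonin transporter, had levels of -1.82, 2.31, -3.36 and 3.09 and lay near the line with a deviation of 0.14. Its mean response was above 4, where the median deviation of all genes was -0.61. Another probe of Met, the receptor of hepatocyte growth factor, gave 0.14 for the difference of differences, so its value is uncertain.

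The negative genes were Gpr162 (-3.51), Egr1 (-3.001), Nxpe5 (-2.70), Spic (-2.60), Hpn (-2.58), Fcgr2b (-2.54), Pdgfc (-2.53), Gm1673 (-2.47), Tmem176a (-2.37), Aoah (-2.35), Cxcr4 (-2.31) and Arl5c (-2.28). Gpr162, an orphan receptor, had levels of -1.09, -1.25, 2.15 and -1.53, so 1 array alone set its value. Spic, a transcription factor of iron-recycling macrophages, had levels of -2.46, 1.57, -0.39 and 1.05 and the lowest deviation of these genes at -3.72. Cxcr4, the receptor of Cxcl12, had levels of -1.05, -0.56, 0.66 and -1.16, with -2.33 for the difference of differences in its other probe. On the macrophage arrays all 12 were higher in LysM-St18flox. The choice favours this, because the macrophage difference is subtracted in the value by which they were ranked.

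**Figure D5:**
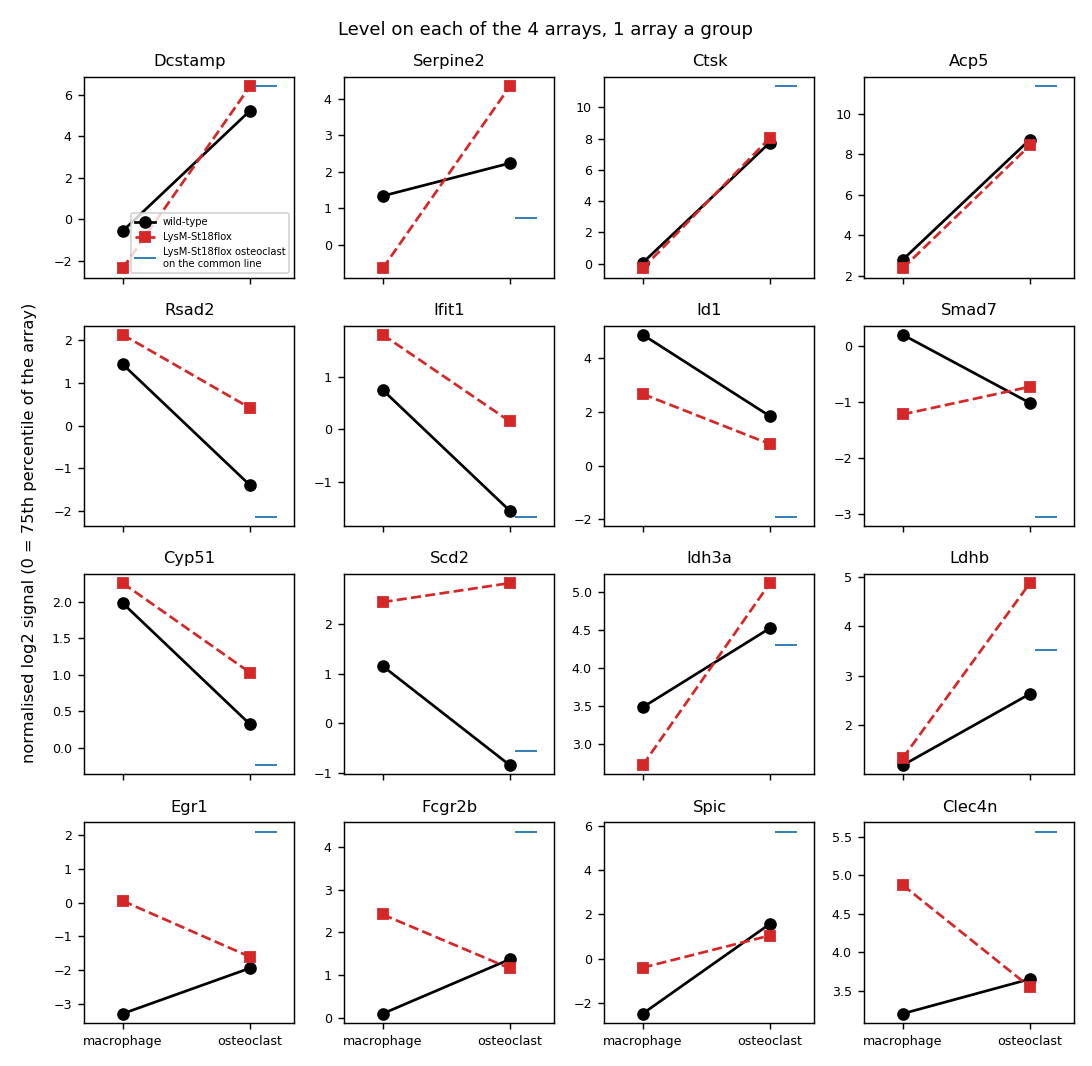
Level of 16 genes on the 4 arrays (vertical axis, log2 relative to the 75th percentile; 1 array a point), wild-type in black and LysM-St18flox in red, with a blue mark where the common line would put the LysM-St18flox osteoclast given the wild-type response. The gap to the mark is not the deviation of the text, which is taken at the mean response. Dcstamp meets its mark at 6.42, Rsad2 and Scd2 end above theirs and Egr1 and Fcgr2b below.

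Responses of at least 2-fold in opposite directions occurred in 4 genes (0.0293% of 13671). Egr1, an immediate early transcription factor, rose from -3.29 to -1.94 in wild-type and fell from 0.05 to -1.60 in LysM-St18flox. Fcgr2b, the inhibitory Fc receptor for IgG, rose from 0.10 to 1.37 and fell from 2.42 to 1.16. In both, the LysM-St18flox macrophages were the highest array, while the osteoclast levels were close. All 6 Fc receptor genes of its list were higher in LysM-St18flox macrophages, by a median of 0.89, against 47.0% of all genes. None of the 6 had a positive difference of differences, and 3 were 2-fold negative, against 4.7% of all genes. The share of all genes is a poor comparison here, because the median mean response of the list was -2.52. All genes with a mean response between -2 and -3 had a median difference of differences of -0.77. By deviation the list lay near the line, at a median of 0.09 with 3 above and 3 below. That median lay between -0.13 and 0.21 under the alternatives. The Fc receptors other than Fcgr2b fell in both genotypes. Fcgr3 had responses of -2.19 and -3.32 and a deviation of -0.02. Fcgr1, the high-affinity receptor, had responses of -4.30 and -4.39 and a deviation of 1.67. It lies among the 18 genes with a mean response below -4, whose median deviation was 0.92. The 23 immediate early genes, Egr1 among them, had a median deviation of -0.01, with Egr2 next lowest at -0.84 and Nr4a2 highest at 0.995. Klk1b11 and Rbbp8nl were the remaining genes of opposite direction.

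Dlx2 (deviation 3.13), Adgrg3 (2.82), Cd300e (2.47), Ch25h (2.21), Dmpk (2.07) and Zfp618 (2.06) were among the 12 genes farthest above the line, besides those named above. All 6 fell at least 2-fold in wild-type. Cd300e had a mean response just below -4, where the median deviation of all genes was 0.92. Dlx2, a homeobox factor, had levels of 0.68, -2.56, -1.75 and -2.70, so the wild-type macrophages stood apart. Ch25h, which makes 25-hydroxycholesterol and is induced by interferon, had levels of 3.00, -1.03, 1.94 and -1.37. Among those farthest below, besides those named, were Htra1 (-2.66), Gstt1 (-2.44) and Slc39a4 (-2.25). Htra1, a secreted serine protease, rose by 6.06 in wild-type and 5.84 in LysM-St18flox, from macrophage levels of -2.85 and -3.45. Htra1 and Gstt1 had mean responses above 4, where the median deviation of all genes was -0.61.

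The 2-fold limit divides genes that differ little. Just inside it were Sema3c and Taf4b at 1.0006 and 1.002, and just outside Dlat and Mdh2 at 0.9985. On the negative side Acss1 and Nod1 lay inside at -1.0029 and -1.0049 and Cpb2 and Lpar6 outside at -0.9976 and -0.9973.

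Of the 72 lists with at least 4 measured members, 14 had a median deviation of 0.25 or more, 4 of -0.25 or less, and 54 lay between. The 4 were the C-type lectins, the Ms4a family (-0.35), the megakaryocyte markers (-0.32) and the matrix metalloproteinases with their inhibitors (-0.26). MHC class II (-0.2482), p53 targets (-0.2493) and the purinergic list (-0.2499) fell just short of this limit. All 77 lists together held 1472 different genes, of which 1212 were measured. Markers of other cell types were mostly dim. Of 14 neutrophil genes 10 were measured, with a median difference of differences of -0.53 and a deviation of -0.20. Of 10 megakaryocyte genes 6 were measured, with a deviation of -0.32, led by Ppbp at -2.63, whose levels were near background. Of 11 B cell genes 4 and of 14 T and NK cell genes 5 were measured, with medians of -0.09 and 0.22, the latter -0.08 without a filter on dim probes. The part of such cells in the values above was not tested.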

How the data were processed

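Total RNA was labelled with Cy3 and hybridised to 1 array a group, all on the same slide and in the same scan, so neither differs between groups. Per the submitters' processing notes, the scanner software was Agilent Feature Extraction 11.0.1.1. Its deposited output holds a processed intensity for every spot, background-subtracted within the array per the file headers, and deposited flags of 0 or 1 that mark outlying spots and spots well above background. A further deposited table has log2 levels of 30909 probes, with a median of 9.39 on every array and correlations of at least 0.9998 with the scanner values. Its scaling and centring are unknown, and it was an alternative only.

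The 75th percentile of the signal, which was subtracted on the log2 scale, was 634.9, 769.2, 1158.9 and 1060.1 in wild-type macrophages, wild-type osteoclasts, LysM-St18flox macrophages and LysM-St18flox osteoclasts. Between 57.3% and 61.7% of probes were well above background and 0 spots were saturated. Spots of a probe were averaged without outliers, which numbered 80 to 126 an array. Of 56575 probes, 35886 carried a RefSeq accession, of which 32977 were named through the gene table of GRCm38.p6; the file headers name another build, so this table served for names and promoters only. A gene was represented by its brightest named probe. Named genes are the 12 with the highest and lowest difference of differences and deviation, list members of the largest deviation or past 2-fold, genes with opposite responses, the threshold neighbours, the checks and the defining markers. A few further members were chosen for their role with their values seen. The comparison, the 77 gene lists and the named genes were chosen with earlier results of these data known. Alternatives were another centring, quantile scaling, normexp background correction with an offset of 50 (limma 3.58.1, R 4.3.3), the authors' table, other filters, the median over probes and other lines (running median by lowess in statsmodels 0.14.6). The computation of the line and the deviation was tested on simulated data. Some genes that the naming rule selects are not reported here.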

Additional observations from a re-analysis of the deposited data

Results flagged for a closer look

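Genes were singled out when they moved at least 2-fold upward in 1 genotype and at least 2-fold downward in the other. With 1 array a group this difference was not tested. Rbbp8nl had a difference of differences of -4.66, with levels of -4.47 and -0.83 in wild-type macrophages and osteoclasts and -2.85 and -3.87 in LysM-St18flox, several of them near background. Egr1 had -3.0, from a level in LysM-St18flox macrophages of 0.05 against -3.29 in the wild type. Fcgr2b had -2.54, and -2.31 in its other probe. Klk1b11 had -2.22, and belongs to a family of near copies whose signals a probe may not separate.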

How the results depend on the processing

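Against 440 higher and 642 lower genes by difference of differences and 258 and 421 by deviation, centring on the median gave 810 and 363 by difference of differences, and normexp correction gave 329 lower ones and 157 and 179 by deviation. Without a filter on dim probes the counts were 1324 and 2024 by difference of differences and 1257 and 1511 by deviation, and with a stricter filter 291 and 318, and 155 and 191. Quantile scaling, the authors' table, the median over probes and the other lines kept these counts within 1.5 times. The slope lay between 1.46 and 1.53. Of the 679 genes off the line, all kept their sign under normexp and 296 remained 2-fold off. Of the lists whose median deviation was at least 0.25 in size, 1 reversed: endothelial markers had -0.25 with no filter, and their median difference of differences became -0.31. No paired analysis was possible because each group had 1 array, and no array could be left out. The number of arrays limits the precision: nothing here separates genotype from the culture, and dim genes rest on small signals.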

Other observations

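Probes without a gene name went more often down than up. Of 10919 such probes well above background on all 4 arrays, 216 (1.98%) had a difference of differences of at least 2-fold in the positive direction and 805 (7.37%) in the negative direction, with a median of -0.12. Among named genes the shares were 3.22% and 4.7% and the median was 0.04.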
